A study of Mus musculus with 96 samples.

Results

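SOX17 occupancy was compared between day 4 and day 2 of GATA6 induction at every GATA6 binding region of the study, 42403 regions with a median width of 524 bp, using the 4 of the study's 96 libraries that were made with the SOX17 antibody after 48 h and 96 h of doxycycline (Dox). All 4 came from KH2 mouse embryonic stem (ES) cells of a C57BL/6 x 129/Sv background that carry a Dox-inducible Gata6 cassette encoding an HA-tagged protein, and both groups received Dox at 1 µg/mL, in medium with serum and LIF, on feeder fibroblasts that were adsorbed away before fixation. The 2 day 2 libraries (48 h) and the 2 day 4 libraries (96 h) thus differ in the duration of induction. The methods describe a pair of independently picked clones, and the clone behind each of these 4 libraries was not given in the sources used here. Per the methods, the chromatin of a condition's 2 libraries was prepared independently. Whether the preparations came from separate cultures was not given in the sources used here. The p-values thus rest on the spread between these preparations, taken largely over regions of similar SOX17 level. The wider study followed GATA6, SOX17 and the pluripotency factors OCT4, SOX2 and ESRRB by chromatin immunoprecipitation and sequencing (ChIP-seq), in which crosslinked DNA is recovered with an antibody and sequenced, before and during induction and in XEN cells, a CD1 line derived from extra-embryonic endoderm and grown without LIF. Control siRNA cells were Gata6-inducible ES cells of a clone named in the methods, nucleofected with non-targeting siRNA and collected at day 2. Per the methods, libraries of the knock-down experiment were sequenced paired-end and the other ChIP libraries single-end. The control siRNA cells were used here only as an alternative to the day 2 libraries.

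SOX17 is a transcription factor of the SOX family, whose HMG domain bends DNA at short motifs built around ATTGT. It is a marker and a regulator of the primitive endoderm (PrE), the embryonic layer that lines the blastocoel and gives rise to the yolk sac, where it acts after GATA6 and alongside GATA4 and SOX7. In pluripotent cells the related factor SOX2 pairs with OCT4 on composite OCT:SOX sites, and SOX17 can also contact DNA next to OCT4, on a compressed version of the site in which the spacing base is missing.

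To show what the regions look like, the best SOX17 motif, as placed by the authors with FIMO, is printed for regions on which the comparison turns: 3 of the largest rises (Mbtps2, Car4, Fras1), 2 of the largest falls (Nars2, Cd247), the strongest region at day 4 (Col4a2) and a region of a basement membrane gene (Nid2) and of an endocytic adaptor gene (Dab2) that rose. Each region is named by the gene whose protein-coding transcription start is nearest, which is a label of position and not of control. Sequences are of the mm10 (GRCm38) genome, 5′ to 3′ on the strand given, and the capitals mark the bases matched by the motif.
Mbtps2, chrX:157640304-157640332, + strand: ttctagtttaGTCATTGTCtgagctttat
Car4, chr11:84956328-84956356, - strand: ggcttagggtCTCATTGTCtgcttctgct
Fras1, chr5:96322991-96323019, + strand: actcttggacCTCATTGTCttccttagca
Nars2, chr7:96905556-96905584, - strand: gaatgaactgGACATTGTCtttgccctca
Cd247, chr1:165854964-165854992, + strand: tacatgtggtTACATTGGCcattgcaggc
Col4a2, chr8:11308775-11308803, - strand: gaccatgtctGCCATTGTCcagcacacaa
Nid2, chr14:19776848-19776876, + strand: gctagatcttCTCATTGTCttggtttttg
Dab2, chr15:6260107-6260135, + strand: gtcatcaatcTCTATTGTCtcggtgattc
All of these except the Cd247 match hold ATTGT. Regions that rose and regions that fell both carry such matches.

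The deposited value of a region is in RPM, reads scaled to the size of the library, and the libraries of a condition share a value. Because each pooled value is the mean of the RPM of a pair of libraries, and each library's RPM stands for whole reads, the reads of each library could be recovered at all 42403 regions for day 2 and at 42375 (99.9%) for day 4. The remaining 28 regions, among them the strongest of Lama1 and Cubn, have pooled values only and were not tested. Every recovered library had at least 1 read at every region, which was taken to be a constant of 1 added by the authors. RPM values keep this constant, and the read numbers of single regions below are given without it. Libraries are called A (the deeper) and B, since their replicate numbers were not recovered. The day 2 libraries held 12706999 and 12640513 reads and the day 4 libraries 17007831 and 14218327, of which 9.52% (day 2 A), 6.65% (day 2 B), 10.8% (day 4 A) and 10.1% (day 4 B) fell in the regions. Day 2 library B stood below its partner at strong regions. Over the strongest 1% of regions the median was 25.2 RPM in day 2 A against 15.3 in day 2 B, and 29.3 against 23.7 RPM in the day 4 pair. Across regions, the log2 levels of paired libraries had an r of 0.890 at day 2 and 0.919 at day 4. RPM are shares of a library and no spike-in was used here, so a change in the total amount of bound SOX17 is not measured.

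SOX17 signal changed in both directions between day 2 and day 4, with more regions called higher than lower. On log2(RPM + 0.186), with the constant at percentile 5 of the non-zero SOX17 values, limma called 8440 of 42375 regions (19.9%) higher and 4847 (11.4%) lower at day 4 at a Benjamini-Hochberg adjusted p under 0.05, so that 63.5% of the called regions were higher. Changes of the higher regions ran from 0.96 to 3.91 on the log2 scale (median 1.45), those of the lower regions from -3.65 to -0.95 (median -1.34), with a median standard error (SE) of 0.40 in both sets. The SE of a region is drawn by limma largely from regions of similar level and is not the spread of its own libraries. Regions nearest to Eri3 (7.17 and 6.54 RPM at day 4) and Cmtm4 (3.06 and 8.58 RPM) both had an SE of 0.40. The calls were thus close to a cut by size. Both day 4 libraries lay above both day 2 libraries at 8403 of the 8440 higher regions, and below them at 4824 of the 4847 lower ones. The same values made the calls, so that this separation is largely fixed by the call and is no separate evidence for it. The median change over all regions was 0.12, and an unadjusted p under 0.05 was reached at 17359 regions (41.0%). By size alone, 8126 regions (19.2%) were at least 2-fold higher and 4705 (11.1%) at least 2-fold lower in pooled RPM.

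The number of calls moved with the libraries more than the size of the changes did. Leaving out a library leaves 1 library in its day, which is then assumed to vary like the pair of the other day, so that these counts are not on the footing of 2 against 2. Without day 4 library A, and likewise without day 4 library B, the spread came from the day 2 pair alone and limma made 0 calls in either direction, although 9616 and 8204 regions still had an unadjusted p under 0.05, and the lowest adjusted p was 0.206 and 0.249. Every one of the 8440 higher and 4847 lower regions kept its direction in both of these fits, which the call itself largely fixes where the libraries do not overlap. Regions at least 2-fold higher then numbered 8463 and 7909, against 8126 with both libraries. With the spread taken from the day 4 pair alone, leaving out day 2 library A gave 9929 higher and 3246 lower regions (75.4% of calls higher), and leaving out day 2 library B gave 6477 and 4967. Taken as a ratio to the input of the same day, 6073 regions were higher and 5430 lower (52.8% of calls higher). Of these, 5221 of the higher and 3588 of the lower regions were among those called without input. Both libraries of a day were divided by the same pooled input value. The error of the input is thus not part of the spread, here and wherever a ratio to input is given. The input itself, sequenced without antibody, had a median log2 change of 0.33 at the higher regions, -0.091 at the lower ones and 0.12 over all regions. Between the input libraries of day 2 and day 4 limma called 0 regions, with 3067 (7.23%) at an unadjusted p under 0.05 and a lowest adjusted p of 0.675. With the day 2 libraries of control siRNA cells in place of the day 2 libraries, 12878 regions were higher and 4085 lower (75.9% of calls higher). Of these, 7237 and 2791 were also called against the untransfected cells. The control siRNA libraries differ from the day 4 libraries in transfection and in sequencing layout as well as in time, which cannot be told apart.

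Chromosome 8 stood apart from every other chromosome, in SOX17 and in input alike. Its median SOX17 change was 0.45 on the log2 scale, against 0.01 to 0.22 on the other 19 chromosomes with more than 1 region, and 668 of its 2199 regions (30.4%) were higher and 156 (7.09%) lower, against 19.3% and 11.7% elsewhere. The input of chromosome 8 had a median change of 0.43, against 0.08 to 0.16 elsewhere, and GATA6, OCT4 and SOX2 had 0.46, 0.26 and 0.42, each above the range of the other chromosomes. Chromosome 8 regions lay above the rest by 0.37 and 0.44 in median log2 level in the day 4 input libraries, by 0.31 and 0.36 in the day 4 SOX17 libraries, and by 0.37 and 0.32 in the XEN SOX17 libraries. In the day 2 libraries this difference was 0.0 in both inputs and 0.0 and 0.1 in SOX17. As a ratio to input 14.6% of its regions were higher and 13.0% lower, close to the 14.3% and 12.8% elsewhere. Without chromosome 8, limma called 7680 regions higher and 4644 lower, so that the counts over all regions do not turn on it. Of the regions described below, those at Cmtm4, Otud4, Col4a2, Slc7a6 and Zfp42 lie on chromosome 8, and their changes are given there without its shift in input.

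**Figure D1:**
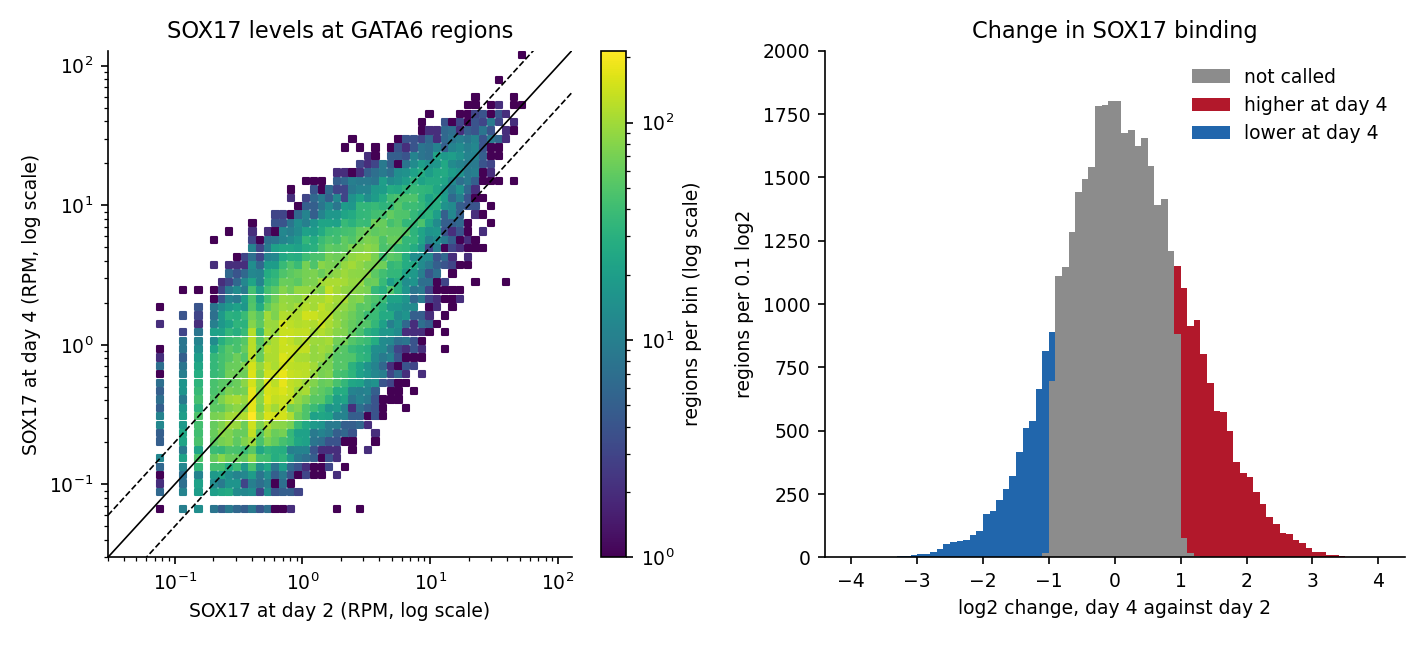
Left, pooled SOX17 level of the 42403 GATA6 regions at day 2 (x axis) and day 4 (y axis), both in RPM on log scales, colored by the number of regions per bin, with the line of equality (solid) and the 2-fold lines (dashed). Right, number of regions per 0.1 of log2 change from day 2 to day 4, split into the 8440 called higher, the 4847 called lower and the regions not called. Those not called mostly sit between the called ones and overlap them at the edges. The bin that starts at 1.0 holds 78 regions not called and 987 called higher, and the bin that starts at -1.1 holds 16 and 797 called lower.

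At the regions that rose, which were chosen for an increase after day 2, SOX17 was close to the level of input until 16 h of Dox. Their median SOX17 level was 0.405 RPM before Dox, 0.4 after 16 h and 0.714 after 1 day, and it went from 0.828 RPM at day 2 to 2.91 at day 4, against an input median of 0.380 at day 2 and 0.537 at day 4. The regions that fell had a median signal of 0.969 RPM with the SOX17 antibody already before Dox, where input had 0.533. SOX2 and OCT4 had medians of 1.92 and 1.55 RPM there before Dox. Whether the signal of the SOX17 antibody before Dox is SOX17 was not tested. At the regions that fell it was 0.9 RPM after 16 h and 1.76 RPM after 1 day. They stood at 1.81 RPM at day 2 and at 0.523 at day 4, below their level before Dox, where their input median was 0.452. The regions in neither set had medians of 0.868 RPM at day 2 and 0.892 at day 4. Because regions differ in width, the levels of sets are also given per kb: the median rose from 1.59 to 5.65 RPM per kb in the higher set, fell from 2.89 to 0.816 in the lower set, and was 1.84 and 2.21 over all regions. The day 2 and day 4 values chose these sets, so that only the earlier times, XEN cells and the other antibodies are separate measurements. GATA6 binding over the time points and in XEN cells had in turn defined which regions were compared. The preceding interval showed few calls: from day 1 to day 2, a comparison that shares the day 2 libraries, limma called 1 region higher and 0 lower, with 2349 regions (5.54%) at an unadjusted p under 0.05.

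**Figure D2:**
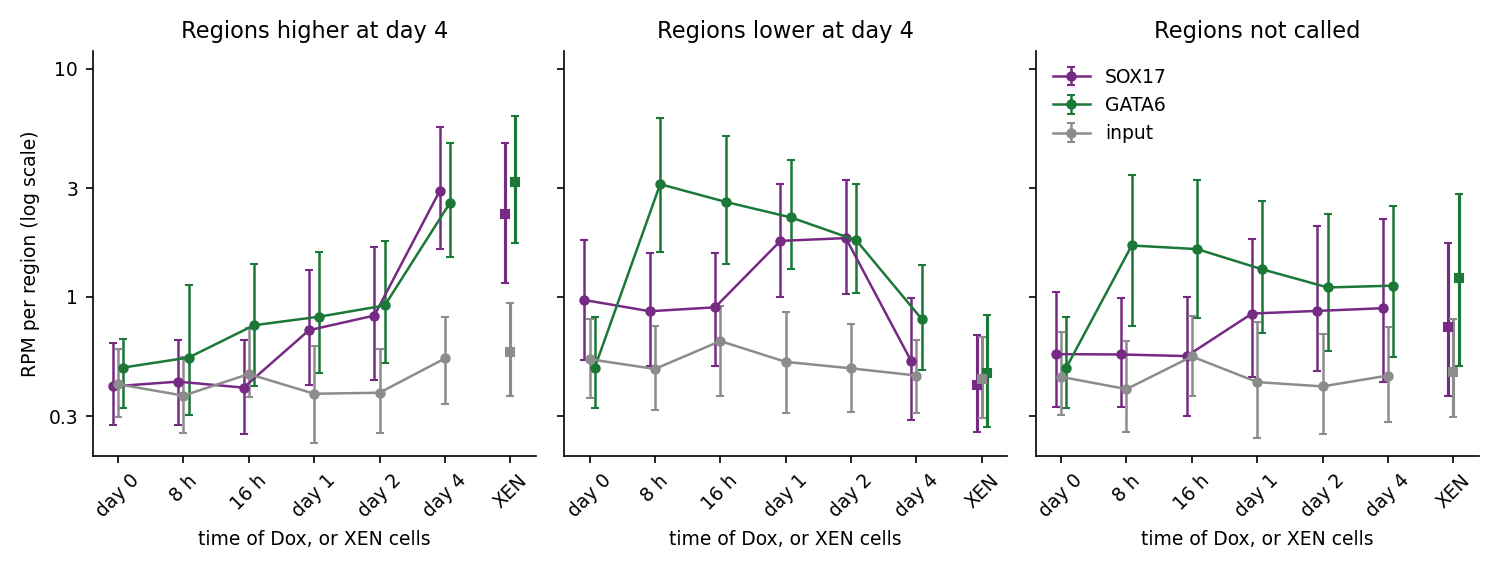
Median RPM per region (log scale) of SOX17 (purple), GATA6 (green) and input (gray) before Dox, over the induction times and in XEN cells (squares), with bars from the lower to the upper quartile of regions, for regions whose SOX17 was higher at day 4, lower at day 4 or not called. SOX17 goes from 0.828 to 2.91 RPM between day 2 and day 4 in the left panel and from 1.81 to 0.523 RPM in the middle panel.

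XEN cells, whose SOX17 libraries were not used to choose the sets, carried SOX17 at the regions that rose and little at those that fell. Per the paper, the regions themselves are GATA6 binding regions found over the time points and in XEN cells. XEN levels are therefore not independent of which regions could be compared, and this is given as a description. The median level in XEN cells was 2.31 RPM at the higher regions, 0.411 at the lower regions and 0.849 over all regions. SOX17 was above its day 1 level in XEN cells at 90.1% of the higher regions, at 2.54% of the lower regions and at 48.0% of all regions. Against the control siRNA cells at day 2, XEN cells were above at 84.0%, 8.58% and 52.6%. XEN cells differ from the induced ES cells in strain, origin and medium, which cannot be told apart here.

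Measured against input, SOX17 was enriched at more regions on day 4 than on day 2. A region was counted as enriched when its SOX17 RPM was at least 3 times the input of the same day in both libraries, which held for 10343 regions (24.4%) at day 1 and 11822 (27.9%) at day 2. It held for 14851 (35%) at day 4, and XEN cells had 10938 such regions (25.8%). In pooled values, which do not require both libraries to pass, the step from day 2 to day 4 was smaller, from 15957 regions (37.6%) to 17757 (41.9%). Between day 2 and day 4, 7312 regions gained this enrichment, 4256 lost it, 7539 kept it and 23268 had it on neither day. Of the regions that kept it, 23.9% were called higher and 4.56% lower, with a median log2 change of 0.44. The upper end of the levels moved as well, from 15.7 to 21.3 RPM for percentile 99 and from 53.0 to 114 RPM for the highest region.

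Where both factors were called, SOX17 and GATA6 changed in the same direction at all regions but 1. In the same test on GATA6, 10007 regions (23.6%) were higher and 4883 (11.5%) lower at day 4. The GATA6 day 4 column has 3 labelled libraries, and its values split into the reads of 2. Of the 8440 regions with higher SOX17, 6758 (80.1%) had higher GATA6 and 0 lower GATA6. Of the 4847 regions with lower SOX17, 2808 (57.9%) had lower GATA6 and 1 had higher GATA6. SOX17 was higher without a GATA6 call at 1682 regions and lower without one at 2038. Where GATA6 was called neither way, the share of regions with higher SOX17 was 6.12% and that with lower SOX17 7.41%. The difference between the SOX17 and GATA6 changes was tested as an interaction term in limma, which called 0 of 42375 regions, with 1533 (3.62%) at an unadjusted p under 0.05 and a lowest adjusted p of 0.0703. A missed threshold does not show that both factors changed alike.

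The signals of the OCT4 and SOX2 antibodies, like that of GATA6, had higher values of change at the regions where SOX17 rose than where it fell. As for GATA6, the SOX2 day 4 column has more labelled libraries than the pair into which its values split. Median log2 changes at the higher, the lower and all regions were 1.25, -0.96 and 0.13 for GATA6, 0.71, -1.3 and -0.16 for OCT4, and 1.14, -1.28 and 0.031 for SOX2. Over the 42403 regions, Spearman's rho of the SOX17 change was 0.857 with the GATA6 change, 0.8 with SOX2, 0.791 with OCT4 and 0.347 with input. These are descriptions across regions, which share the crosslinked chromatin, its accessibility and their base composition, and regions are not replicates. The paper reports that expression of the pluripotency factors goes down during induction, and RPM are shares of a library. Whether the SOX2 antibody also recovers SOX17, or the reverse, was not tested.

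Among the authors' GATA6 classes, Late regions had the largest share of rises and Transient regions the largest share of falls. The classes were made from the course of GATA6 and not of SOX17. Late regions bind GATA6 slowly, Transient ones bind it early and lose it, and Early&Constant ones bind it early and keep it. Of 14241 tested Late regions, 6577 (46.2%) were higher and 165 (1.16%) lower, with a median log2 change of 0.89. Of 16285 Transient regions, 239 (1.47%) were higher and 3474 (21.3%) lower, with a median of -0.42. Early&Constant regions were split, with 1624 of 11849 (13.7%) higher, 1208 (10.2%) lower and a median of 0.15, which was -0.026 without day 2 library B. Seen from the called sets, 77.9% of the higher regions were Late, against 33.6% of all regions, and 71.7% of the lower regions were Transient, against 38.4%. On each of the 20 chromosomes with more than 1 region the Late median was above 0 (0.71 to 0.99, and 1.22 on chromosome 8) and the Transient median below 0 (-0.57 to -0.31, and -0.23 on chromosome 8).

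Regions bound before induction by pluripotency transcription factors (PTFs: OCT4, SOX2, ESRRB) had more falls than rises. Where PTFs were bound at day 0, 352 of 8825 regions (3.99%) were higher and 2391 (27.1%) lower, with a median log2 change of -0.48. Regions that acquired a PTF after induction, called ectopic, were higher at 16.4% and lower at 13.7%, and regions without PTF binding were higher at 26.1% and lower at 5.64%, with a median of 0.32. Within the Late class the shares of higher regions were 37.2% with PTFs at day 0, 34.7% with ectopic PTFs and 47.7% without PTFs. Within the Transient class the shares of lower regions were 33.0%, 37.6% and 12.8%. Before Dox, the median SOX2 level was 1.92 RPM at the regions where SOX17 later fell and 0.456 RPM where it rose, and that of OCT4 was 1.55 and 0.401 RPM.

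By accessibility before induction, closed regions had more rises than falls and accessible regions the reverse. Of 25987 regions closed at day 0, 26.4% were higher and 8.06% lower. At moderately accessible regions these shares were 10.9% and 15.7%, and at accessible regions 4.28% and 21.4%. The order was the same inside the Late class, with 48.4%, 41.6% and 15.2% higher. By histone state before induction, facultative heterochromatin (27.5% higher, 7.6% lower) and regions without marks, called naive (27.6% and 8.37%), lay above the share of all regions for rises. Active enhancers (8.25% and 20.2%) lay above it for falls, and promoters were low for both (8.06% and 6.14%). By position in the gene annotation, 51.9% of the higher, 36.8% of the lower and 45.8% of all regions were intronic.

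**Figure D3:**
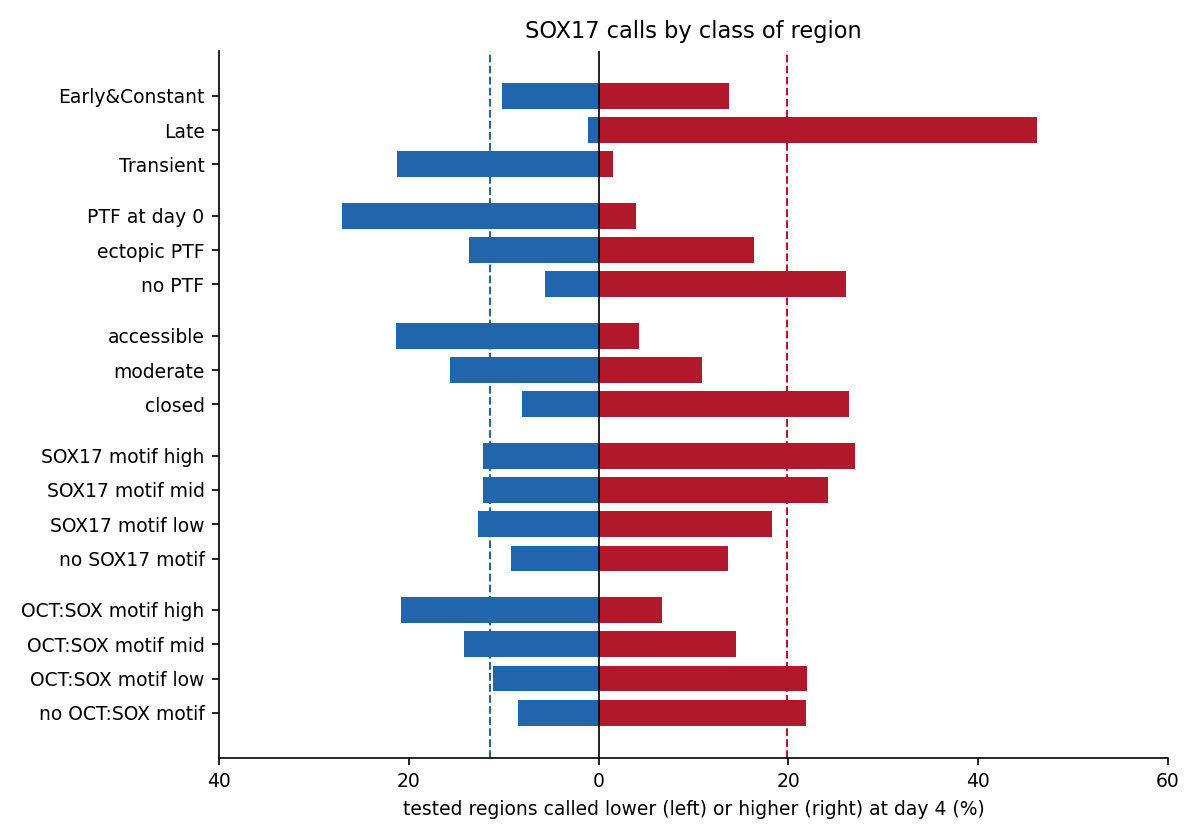
Share of tested regions in percent whose SOX17 was called higher (red, right of 0) or lower (blue, left of 0) at day 4, by the authors' classes of GATA6 course, PTF binding, accessibility before Dox, SOX17 motif and OCT:SOX motif, with dashed lines at the shares over all tested regions (19.9% and 11.4%). The Late class reaches 46.2% higher and the class with PTFs at day 0 reaches 27.1% lower.

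The share of rises differed with the SOX17 motif, and that of falls less so. The authors' best SOX17 motif score was high, intermediate or low, or no motif was found. Rises were called at 27.0%, 24.2%, 18.3% and 13.6% of regions in this order, and falls at 12.2%, 12.2%, 12.7% and 9.27%. The median log2 change was 0.29 with a high score and 0.039 without a motif, and the second of these turned sign with the scaling (-0.077 when centred on the median of all regions). Within the Late class, 58.3% of regions with a high score and 32.0% without a motif were higher. Within the Transient class, 27.0% of regions with a high score and 16.0% without a motif were lower. From 0 to 3 motifs the order was similar, with 13.6% higher at regions with 0 motifs, 20.3% with 1, 24.2% with 2 and 25.6% with 3. Regions with more motifs are not given here, and the width of the regions was not taken into account.

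The core ATTGT, searched on both strands of each region, was present in 80.3% of the higher, 77.1% of the lower and 70.8% of all regions. The authors' best match lay within 50 bp of the GATA6 summit in 36.5% of the higher regions that have a motif, in 26.3% of the lower and in 29.0% of all such regions. Pairs of a SOX and an OCT motif were rare. TTGTATGC, with no base between the motifs, occurred in 1.88% of all regions, and 16.4% of the 798 regions that hold it were higher and 20.2% lower. TTGTNATGC, with 1 base between them, occurred in 2.89% of regions, and 11.4% of those 1226 regions were higher and 20.6% lower. Both were searched on both strands, a match can share letters with one of ATTGT, and some regions hold both. The authors' OCT:SOX motif showed the larger contrast, with 6.64% higher and 20.8% lower at a high score (median log2 change -0.38), against 21.9% and 8.48% without it. A match describes the letters of a region and is not evidence of a bound site.

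Among called regions whose libraries did not overlap and whose mean level was at or above the median, 6114 rises and 2585 falls, the 10 largest rises were all Late regions without PTF binding, and 8 of them were intergenic. The largest was an intergenic region of the X chromosome (chrX:157639804-157640546), 41.5 kb from Mbtps2, which encodes a protease that cleaves membrane-bound transcription factors. SOX17 there was 0.236 and 0.316 RPM in the day 2 libraries and 6.00 and 7.60 RPM in the day 4 libraries. The day 2 values rest on 2 and 3 reads and the day 4 values on 101 and 107, so that the days are far apart while the day 2 level is imprecise. The log2 change was 3.91 ± 0.40 (SE, adjusted p = 3.04e-18, limma), and XEN cells had 12.4 and 10.4 RPM.

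Next came a region 1.52 kb from Cmtm4 (chr8:104397150-104397512), a gene of a membrane protein of the MARVEL family. Its day 2 libraries held 0 and 3 reads and its day 4 libraries 51 and 121, a depth-scaled ratio of 46.5 with an exact counting interval of 15.7 to 228 (95%, counting error only). Shifted by the input change of chromosome 8 relative to all regions, its log2 change was 3.55, against 3.87 unshifted. At the region 1.48 kb from Car4 (chr11:84956135-84956481), which encodes a membrane-anchored carbonic anhydrase, SOX17 was 0.393 and 0.396 RPM at day 2 and 5.82 and 9.42 RPM at day 4. The log2 change was 3.71 ± 0.40 (adjusted p = 1.01e-16, limma). GATA6 at this region went from 0.556 to 2.19 RPM in pooled values, a log2 change of 1.68, and the difference between the changes did not pass the test (2.03 on the log2 scale, adjusted p = 0.905, limma).

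Some of the large rises started from a level well above a few reads. At the region 18.1 kb from Otud4 (chr8:79621123-79621999), a deubiquitinase gene, SOX17 was 2.91 and 1.27 RPM at day 2 and 29.3 and 25 RPM at day 4. At the region 4.06 kb from Thop1 (chr10:81065338-81066614), which encodes a peptidase, it was 2.68 and 2.22 RPM and then 33.1 and 27.9 RPM. Both regions had 15 or more reads in every library, with log2 changes of 3.68 ± 0.43 and 3.54 ± 0.44 (adjusted p = 3.09e-14 and 8.34e-13, limma). The change at Otud4, on chromosome 8, was 3.37 with that shift and 2.19 as a ratio to input (adjusted p = 1.79e-12 and 1.06e-05, limma). The region 50.9 kb from Fras1 (chr5:96322575-96323478), a gene of an extracellular matrix protein of basement membranes, went from 1.10 and 1.19 RPM to 16.0 and 14.8 RPM. Its log2 change was 3.55 ± 0.41 (adjusted p = 1.07e-14, limma), XEN cells had 13.3 and 11.5 RPM, and it holds 5 SOX17 motifs. The other 4 regions, nearest to Sesn3, Eri3, Cacybp and Sectm1a, had changes of 3.47 to 3.67.

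The 5 largest falls were of mixed class. The largest lay in an intron of Tenm4 (chr7:96905300-96905894), nearest to the start of Nars2, a mitochondrial tRNA synthetase gene. SOX17 was 7.95 and 4.35 RPM at day 2 and 0.529 and 0.141 RPM at day 4, and 0.225 and 0.428 RPM in XEN cells. This Transient region with PTFs bound at day 0 thus ended below the input (0.735 RPM at day 4), with a log2 change of -3.65 ± 0.40 (adjusted p = 4.57e-16, limma). The strongest of the 5 lay in an intron of Cd247 (chr1:165854041-165855116), which encodes a chain of the T cell receptor complex. It had 54.9 and 27.1 RPM at day 2 and 2.94 and 2.95 RPM at day 4. It was already at 25 RPM at day 1, after 1.60 RPM before Dox, and OCT4 had 31.1 RPM there at day 2 and 4.45 RPM at day 4 in pooled values. The authors class it as Late with ectopic PTFs, although GATA6 also went from 7.44 to 2.02 RPM.

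An intron of Gli2 (chr1:119003450-119004375), a transcription factor of the Hedgehog pathway, held 10.4 and 5.14 RPM at day 2 and 0.294 and 0.703 RPM at day 4. At the region 36.0 kb from Atp6ap1l (chr13:90868955-90869691), an active enhancer before Dox, the values were 9.52 and 6.65 RPM and then 0.882 and 0.281 RPM. The fifth region (chr3:118194667-118195217), 326 kb from Snx7 and without a SOX17 motif, had 28 and 37 reads at day 2 and 0 in both day 4 libraries. Against a floor of 3 reads over the day 4 pair it was at least 26.7-fold lower. In all 5 regions the XEN libraries were at or below 1.11 RPM.

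**Figure D4:**
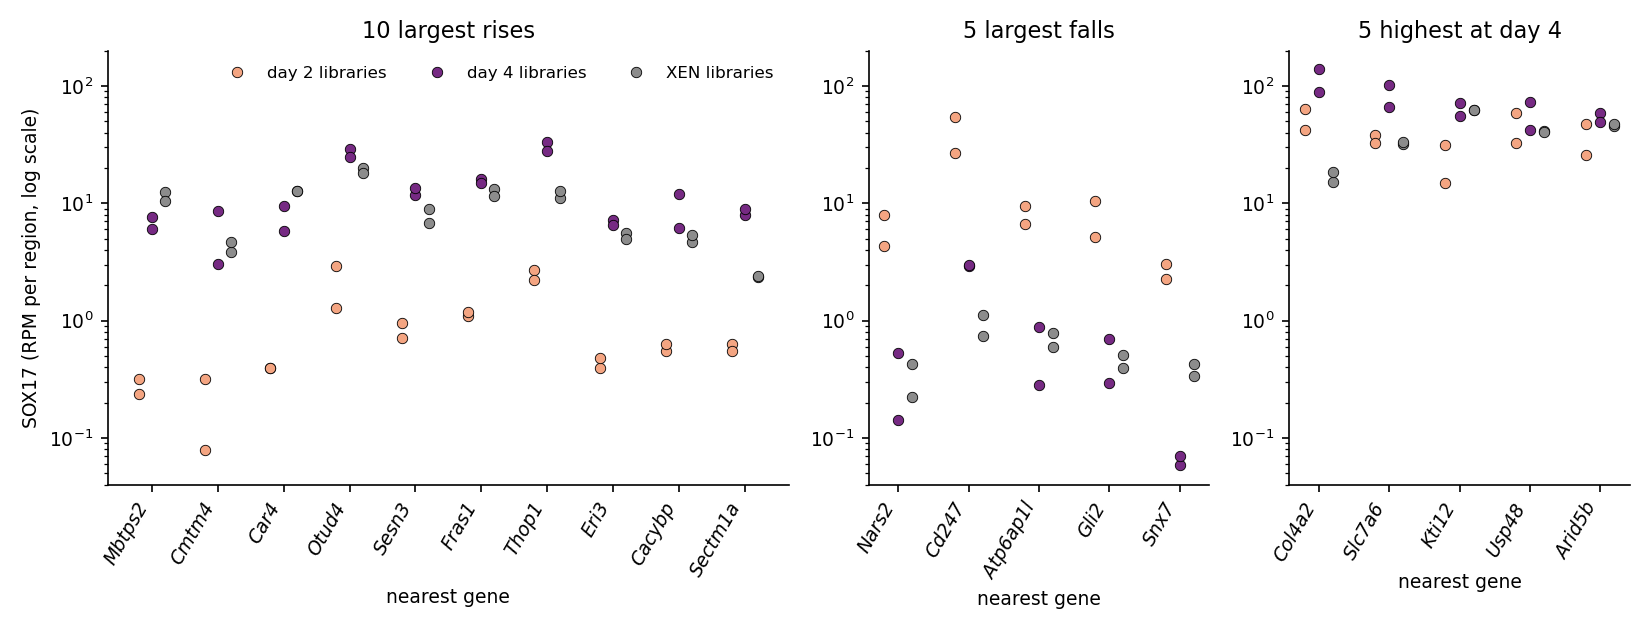
SOX17 level in RPM per region (log scale) of each library of day 2 (orange), day 4 (purple) and XEN cells (gray), at the regions with the 10 largest rises, the 5 largest falls and the 5 highest levels at day 4, named by the nearest gene. Day 2 and day 4 points are apart at every rise and fall because the choice of these regions required it. Of the 5 highest regions, which were chosen by level alone, only the one at Usp48 has overlapping days.

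The 5 strongest regions of day 4 were already strong at day 2, and only 1 of them was called. They are wide (1925 to 3595 bp) and their RPM are sums over the region. The highest (chr8:11308478-11310403) lies in an intron of Col4a1, 3.37 kb from the start of Col4a2, genes of collagen IV chains that share a promoter. SOX17 was 64.1 and 41.8 RPM at day 2 and 140 and 88.5 RPM at day 4. The days do not overlap. The log2 change of 1.10 ± 0.68, with an SE that limma draws largely from regions of similar level, did not pass the test (adjusted p = 0.217, limma). With the input shift of chromosome 8 it was 0.78, and 0.14 as a ratio to input (adjusted p = 0.392 and 0.884, limma). XEN cells had only 15.1 and 18.5 RPM there. The called region lies in an intron of Txndc12, 4.95 kb from Kti12, where SOX17 was 31.4 and 14.9 RPM at day 2 and 71.4 and 55.6 RPM at day 4 (log2 change 1.54 ± 0.58, adjusted p = 0.0299, limma). As a ratio to input this change was 1.23 (adjusted p = 0.0552, limma). The regions at Slc7a6, Usp48 and Arid5b had log2 changes of 1.22, 0.33 and 0.63 (adjusted p = 0.13, 0.726 and 0.448, limma), and that at Slc7a6, on chromosome 8, was 0.90 with the shift.

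Genes with known roles were described by lists of regions whose nearest protein-coding start within 100 kb was that of a listed gene, beside 34062 tested regions near any gene, of which 20.7% were higher and 10.1% lower, with a median log2 change of 0.18. Among transcription factors of the PrE, 21 of 91 regions (23.1%) rose and 9 (9.89%) fell, with a median of 0.52. These counts moved with the day 2 libraries, to 37 and 3 without day 2 library A and to 54 and 6 against the control siRNA cells. Regions of Sox17 itself rose at 3 of 8 and fell at 0, those of Gata4 rose at 6 of 15, and those of Foxa2, an endoderm factor, at 6 of 27. The 13 regions of Gata6 had 1 rise and 3 falls. Hnf4a had no region.

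The strongest region of each of these factors was not called. At the strongest region of Sox17 (chr1:4536608-4538990), 40.4 kb from its start, SOX17 was 22.7 and 14.6 RPM at day 2 and 40.9 and 32.5 RPM at day 4. The days do not overlap, with a log2 change of 1.00 ± 0.54 (adjusted p = 0.144, limma). The intron of Gata4 holds its strongest region (chr14:63230600-63233072), with 31.6 and 19.8 RPM and then 43.3 and 30.5 RPM, values that overlap. Foxq1 had the opposite order at its strongest region, with 32.4 and 18.8 RPM at day 2 and 18.2 and 13.2 RPM at day 4 (log2 change -0.67 ± 0.51, adjusted p = 0.326, limma).

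Genes of the basement membrane, the matrix sheet that parietal endoderm secretes in bulk, had rises almost without falls, but a share of rises near that of all regions when taken against input. Of 92 tested regions 31 (33.7%) rose and 1 (1.09%) fell, with a median log2 change of 0.64 over the 94 regions. As a ratio to input 14 (15.2%) rose and 1 fell, close to the 15.0% higher of all regions near a gene in that fit, and against the control siRNA cells 71 rose. Without chromosome 8, which holds Col4a1 and Col4a2, 22 of 74 regions (29.7%) rose. Rises were called at 7 of 11 regions of Col4a2, 5 of 9 of the nidogen gene Nid2, 5 of 18 of the laminin chain gene Lama1, 4 of 5 of Lamb1 and 2 of 4 of Serpinh1, a collagen chaperone gene. None of the 6 regions of Hspg2, the perlecan gene, and none of the 3 of Nid1 was called. At the strongest region of Nid2 (chr14:19776283-19777138), in its intron, SOX17 was 4.88 and 3.09 RPM at day 2 and 17.9 and 14.8 RPM at day 4. All day 4 values were above those of day 2, with XEN cells at 12 and 11.5 RPM, and the log2 change was 2.02 ± 0.44 (adjusted p = 5.52e-05, limma). At Lamb1 (chr12:31254958-31257713) the values were 9.52 and 7.36 RPM and then 22.3 and 18.4 RPM (log2 change 1.25 ± 0.47, adjusted p = 0.0284, limma). This call was lost when SOX17 was taken as a ratio to input (log2 change 1.01, adjusted p = 0.0545, limma).

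Genes of endocytic uptake, which the visceral endoderm uses to absorb maternal nutrients, had rises and a single fall. Of 34 tested regions 12 (35.3%) rose and 1 (2.94%) fell, with a median log2 change of 0.73 over the 35 regions. The number of rises was 20 without day 2 library A, 7 (20.6%) as a ratio to input, where all regions near a gene had 15.0%, and 19 against the control siRNA cells. The receptor gene Lrp2 accounted for 9 of the rises, out of 17 regions, while Dab2 had 2 among 9 regions and Cubn 1 among 8. The strongest region of Lrp2 was not called (log2 change 0.77 ± 0.46, adjusted p = 0.194, limma). It had 15.6 and 13.3 RPM at day 4 and only 1.24 and 1.2 RPM in XEN cells. Dab2 encodes an endocytic adaptor, and SOX17 at its strongest region (chr15:6259733-6260526) was 4.56 and 4.03 RPM at day 2 and 19.3 and 16.7 RPM at day 4. The groups are well apart and XEN cells had 16.5 and 19.0 RPM, with a log2 change of 2.02 ± 0.44 (adjusted p = 7.01e-05, limma). The region of Amn, the anchor of the cubilin receptor, is the exception. It is Transient, holds no SOX17 motif and had 17.3 and 8.78 RPM at day 2 against 2.82 and 2.25 RPM at day 4 (log2 change -2.21 ± 0.42, adjusted p = 3.32e-06, limma).

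Signaling genes were mixed, with 8 of 55 regions (14.5%) higher, 12 (21.8%) lower and a median log2 change of -0.19. This balance depended on the day 2 libraries, with 8 higher and 4 lower without day 2 library A, and 13 higher and 7 lower against the control siRNA cells. Falls were called at 5 of 11 regions of Spry4 and 5 of 10 of Fgfr2, an inhibitor and a receptor of FGF signaling, which drives PrE specification in the embryo. Rises were called at 4 of 13 regions of Pdgfra, a receptor that marks the PrE, and at 3 of 7 of Bmp2, a secreted growth factor. Bmp2 had its strongest region 33.9 kb from its start (chr2:133585111-133587006), where SOX17 was 12 and 7.99 RPM at day 2 and 28.8 and 25.8 RPM at day 4. The days do not overlap and XEN cells had 31.2 and 27.7 RPM, with a log2 change of 1.46 ± 0.49 (adjusted p = 0.0128, limma) that lost the call as a ratio to input (1.11, adjusted p = 0.083, limma). The strongest region of Pdgfra had a log2 change of 0.50 ± 0.54 (adjusted p = 0.504, limma).

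Regions of pluripotency genes had more falls than rises against the untransfected day 2 cells, and the reverse against the control siRNA cells. Of 125 regions 6 (4.8%) were higher and 28 (22.4%) lower, with a median log2 change of -0.39, and 74 of them are Transient and 52 had PTFs at day 0. Against the control siRNA cells 21 were higher and 15 lower, and without day 2 library A the counts were 10 and 18. Falls were called at 8 of 13 regions of Esrrb, 5 of 23 of Tbx3, 3 of 5 of Pou5f1 (the Oct4 gene) and 3 of 8 of Sox2, and at 0 of 18 of Klf5. At the strongest region of Pou5f1 (chr17:35502077-35503182), 3.39 kb from its start, SOX17 was 12.3 and 7.91 RPM at day 2 and 4.23 and 3.09 RPM at day 4. Both days are apart, and the log2 change was -1.40 ± 0.42 (adjusted p = 0.00499, limma). Nanog had its strongest region 4.69 kb from its start (chr6:122702448-122703147), with values of 7 and 4.43 RPM and then 1.76 and 2.39 RPM (log2 change -1.36 ± 0.40, adjusted p = 0.00413, limma). This direction depended on the day 2 libraries, since control siRNA cells had 1.83 RPM there and the change against them was 0.15. The call at Nanog was also lost as a ratio to input (log2 change -0.56, adjusted p = 0.302, limma).

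At the strongest region of Sox2 (chr3:34720896-34721344), 70.7 kb from its start, SOX17 was 10.5 and 7.04 RPM at day 2 and 5.06 and 2.81 RPM at day 4. These do not overlap, and the log2 change was -1.15 ± 0.42 (adjusted p = 0.0232, limma), or -0.87 (adjusted p = 0.0582, limma) without day 2 library A. XEN cells had 0.338 and 0.171 RPM there. Zfp42, a marker of naive pluripotency, differed from its list. Its strongest region (chr8:43280611-43281243) had 5.27 and 3.01 RPM at day 2 and 9.17 and 8.58 RPM at day 4, which do not overlap, with a log2 change of 1.12 ± 0.42 (adjusted p = 0.0289, limma). Without day 2 library B the change was 0.73 (adjusted p = 0.12, limma), and against the control siRNA cells, with 8.45 RPM in the pooled value, it was 0.08. This region lies on chromosome 8, and with the shift by input its change was 0.80 (adjusted p = 0.128, limma). Klf4 had 3 rises and 2 falls among 18 regions, and the log2 change of its strongest region was 1.22 ± 0.51 (adjusted p = 0.0501, limma).

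**Figure D5:**
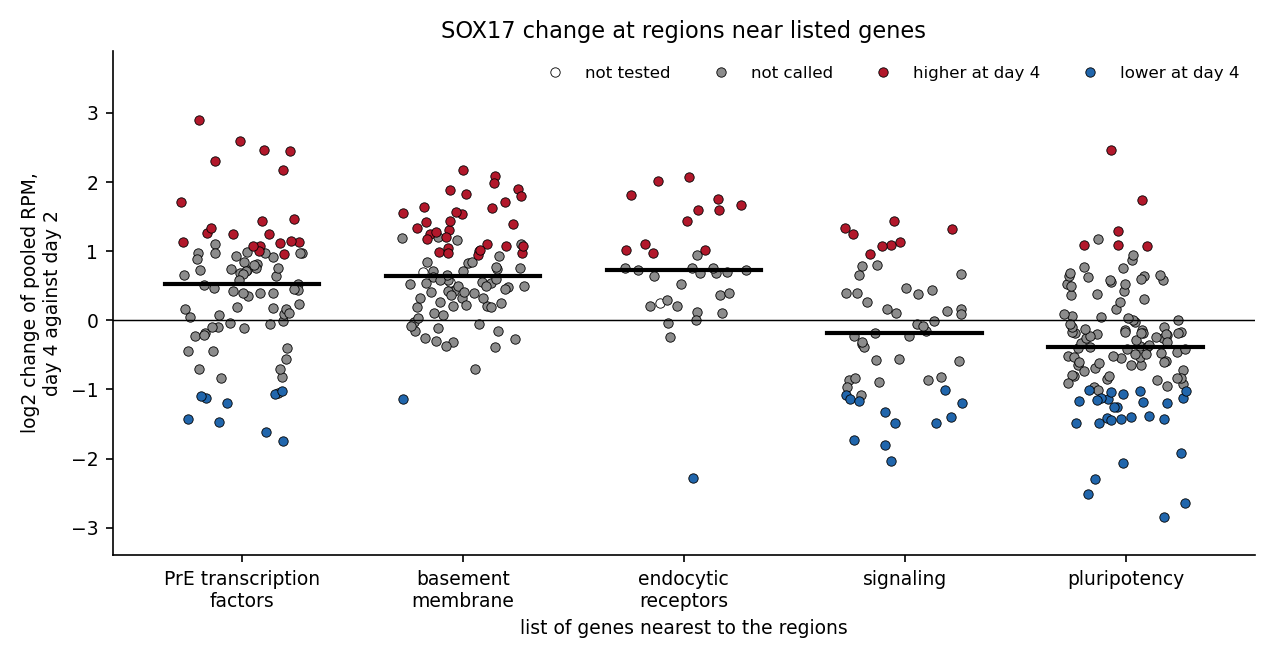
Log2 change of pooled SOX17 RPM from day 2 to day 4 (y axis) of each region nearest to a listed gene within 100 kb, by gene list (x axis), colored by the call, with a bar at the median of the list. The medians are 0.52, 0.64 and 0.73 for PrE transcription factors, basement membrane and endocytic receptors, and -0.19 and -0.39 for signaling and pluripotency.

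With 1 day 4 library, and the spread from the day 2 pair alone, each of the 25 named regions that were called lost its call and kept its direction. Over all regions the log2 changes of these fits had an r of 0.97 and 0.965 with those of all 4 libraries, which share 3 of the 4. The regions that the authors class as bound by SOX17, a class made from peaks of these same libraries among others, were higher at 36.1% and lower at 12.1%, and regions classed as not bound at 6.94% and 10.9%, which is given as a description only.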

How the data were processed

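SOX17 ChIP-seq libraries of day 2 and day 4 were compared. The authors demultiplexed reads with bcl2fastq, trimmed them with cutadapt, aligned them to mm10 with Bowtie2, removed duplicates by unique molecular identifiers, called peaks with MACS2, and counted reads on GATA6 regions with bamsignals, giving deposited values in RPM, averaged over a condition's libraries. The authors' FIMO motif values are a deposited score. Of the table's 105 columns, 14 hold values of samples that are not listed and were not used. Pooled RPM were split into whole reads of 2 libraries, each taken to hold a constant of 1 read per region. Groups come from sample titles and time points. Regions were tested with limma 3.58.1 (R 4.3.3, mean-variance trend, two-sided, Benjamini-Hochberg over 42375 regions) and the steps tested on simulated data. Regions were annotated with the GENCODE release on the same assembly, using Python 3.11.15, numpy 2.4.6, pandas 2.3.3 and pysam 0.24.0. Named regions are the 10 largest rises and 5 largest falls (called, libraries apart, mean level at or above the median), the 5 highest at day 4, and the strongest region of each listed gene. Members and lists were chosen with earlier results of these data known. Alternatives changed the pseudocount, filter, scaling, background, weights, libraries and, chosen after seeing the data, day 2 cells and chromosome 8.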

Additional observations from a re-analysis of the deposited data

How the results depend on the processing

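No paired analysis was possible because the deposited columns are pooled and carry no replicate numbers, so that the recovered libraries cannot be tied to replicate 1 or 2. The precision of low levels is limited by reads, since 1 read is worth 0.0588 RPM in the deepest SOX17 library compared. Leaving out each library in turn gave 0 to 9929 regions higher and 0 to 4967 lower, with 0 in both directions without either day 4 library, where the spread comes from the day 2 pair alone. It gave 7320 to 10715 regions at least 2-fold higher, 4081 to 5908 at least 2-fold lower, and median log2 changes of 0.035 to 0.29 over all regions, 0.8 to 1.05 at Late regions, -0.47 to -0.36 at Transient ones, 0.15 to 0.5 with a high SOX17 motif, -0.015 to 0.18 without a motif and -0.026 to 0.39 at Early&Constant regions. The lowest values of the last 2, without day 2 library B, turned their sign. An adjusted p under 0.01 left 2929 lower regions. Among regions at or above the median level, 2699 were lower and 2545 at least 2-fold lower, fewer regions being tested, and medians were 0.4 over all regions, 1.24 at Late, -0.5 at Transient, 0.5 with a high motif and 0.32 without one. A pseudocount 10 times larger left 2440 regions at least 2-fold higher and 713 at least 2-fold lower, with medians of 0.35 (Late), -0.13 (Transient) and 0.14 (high motif), and one 10 times smaller gave 1.07 and -0.58 at Late and Transient regions. Centring on all regions removed the shift of 0.12, giving medians of 0.0 over all, 0.77, -0.54 and, without a motif, -0.077. Centring on regions not bound by SOX17 gave 0.24, 1.01, -0.3 and 0.17. As a ratio to input the median was 0.66 at Late regions and -0.079 without a motif, and among wider regions 1.25 at Late, -0.52 at Transient and -0.048 without a motif. The control siRNA libraries, an alternative chosen after seeing the data, gave 12878 higher regions, 3102 at least 2-fold lower, medians of 0.31 (all), -0.12 (Transient) and 0.28 (no motif), and changes of 1.15 at the Dusp6 and 0.15 at the Nanog region, which were negative against untransfected cells. Of the 25 named regions that were called, all kept the call with limma-voom, both pseudocounts, the filter and the centring on unbound regions, 5 lost it as a ratio to input (Kti12, Lamb1, Bmp2, Nanog and Zfp42) and 1 when centred on all regions (Zfp42, 1.00, adjusted p = 0.0537, limma). Both alternatives for chromosome 8, also chosen after seeing the data, kept the counts (8345 higher and 4831 lower with each chromosome shifted by its input), and the shift ended the call at Zfp42 (0.80, adjusted p = 0.128, limma) and made one at Klf4 (1.24, adjusted p = 0.0476, limma). Calls by limma-voom were 8259 higher and 4484 lower. The cause of these shifts was not tested.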
